A study of Mus musculus with 4 samples.

Results

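The CXC chemokines are small secreted proteins, named for a cysteine pair parted by 1 residue, that guide leukocytes through receptors of the CXCR family. Levels of 10 of their genes were followed in cultured cells of mouse mammary tumours that ErbB2 drives: Cxcl9, Cxcl10 and Cxcl11 of the interferon type, Cxcl1, Cxcl2, Cxcl3 and Cxcl5 of the neutrophil type, and Cxcl12, Cxcl14 and Cxcl16 as homeostatic members. The members were taken by gene symbol from the platform annotation, and all 10 of the 10 were among the 22180 genes named on the array, each on 1 probe set.

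Cells were treated for 96 h with 2 µM GSK126, measured on 2 arrays, or with DMSO, its vehicle, likewise on 2 arrays. All 4 samples came from cell lines of tumours in female FVB mice that carry the MMTV-NIC transgene, which expresses ErbB2 and Cre from 1 transcript in the mammary epithelium, and the medium of both groups held serum, EGF, insulin, hydrocortisone and pituitary extract. GSK126 inhibits EZH2, the enzyme that places the repressive histone mark H3K27me3. The labels do not say whether the 2 replicates of a group were separate lines, separate cultures or repeats of 1 culture, so the p-values rest on a spread between arrays that could be technical alone.

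Cxcl9, Cxcl10 and Cxcl11 are ligands of Cxcr3 and draw activated T cells and natural killer cells. Interferons induce them through STAT and IRF factors, and in tumours they are known for their link to T cell infiltration. Cxcl1, Cxcl2, Cxcl3 and Cxcl5 carry a glutamate-leucine-arginine motif ahead of the cysteines, bind Cxcr2, draw neutrophils and are induced largely through NF-kB. Cxcl12 is the ligand of Cxcr4 and Ackr3 and guides stem cells and leukocytes in resting tissue. Cxcl14 is made by resting epithelia, and Cxcl16 is a membrane-bound ligand of Cxcr6 that proteases release from the cell surface.

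Promoter sequence was at hand for 7 of the 10 members, from RefSeq on GRCm38.p6, the C57BL/6J reference and not the FVB strain of these cells. Cxcl5, Cxcl11 and Cxcl16 were not covered. The 250 bases before the start of Cxcl10 are shown because this gene had the largest change of the 10. They lie at chr5:92348890-92349139 on the minus strand and are written 5′ to 3′ along the gene. Capitals mark 1 match to GAAANNGAAA, the core of the element bound by interferon-activated factors, and 2 matches to the kappaB motif of NF-kB.

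Cxcl10: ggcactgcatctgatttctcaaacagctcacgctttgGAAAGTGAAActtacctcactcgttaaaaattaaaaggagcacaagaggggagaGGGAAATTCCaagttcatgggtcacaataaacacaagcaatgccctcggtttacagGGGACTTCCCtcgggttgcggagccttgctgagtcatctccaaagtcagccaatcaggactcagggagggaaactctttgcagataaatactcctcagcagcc

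The last 100 bases before the start of Cxcl1, Cxcl2 and Cxcl3, all on the plus strand, are shown because these neutrophil-type genes carry a kappaB match with the same letters. They lie at chr5:90891145-90891244, chr5:90903799-90903898 and chr5:90786001-90786100. Capitals mark the kappaB match, which was found on both strands at positions shifted by 1 base, so that the matches of the strands overlap.

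Cxcl1: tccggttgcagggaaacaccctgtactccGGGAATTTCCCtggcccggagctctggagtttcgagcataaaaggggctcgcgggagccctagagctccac
Cxcl2: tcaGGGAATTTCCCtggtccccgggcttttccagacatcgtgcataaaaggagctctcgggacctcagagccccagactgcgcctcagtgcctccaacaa
Cxcl3: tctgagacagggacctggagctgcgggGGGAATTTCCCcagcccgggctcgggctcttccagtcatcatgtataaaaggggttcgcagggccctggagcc

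Both strands of the 250 bases were searched in each promoter. The kappaB motif was found in 4 of the 7 members' promoters (Cxcl1, Cxcl2, Cxcl3 and Cxcl10) and in 3.9% of all 32851 promoters of the table. GAAANNGAAA was found in 2 of the 7, those of Cxcl10 and Cxcl14, and in 2.98% of all promoters. TTCNNNGAA, the core of the STAT element, was found in that of Cxcl14 and in 7.02% of all promoters. None of these letters were found in the windows of Cxcl9 and Cxcl12. The promoters of Cxcl12 and Cxcl14 held 14 and 16 CG dinucleotides, and those of Cxcl1, Cxcl2 and Cxcl3 held 10, 9 and 7. Those of Cxcl9 and Cxcl10 held 3 and 5, and the median over all promoters was 6.0.

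None of the 10 CXC chemokines passed the threshold, an adjusted p under 0.05 in limma over all 22180 genes, which 0.433% of all genes passed. Cxcl10 came closest, at 2.03-fold higher with GSK126, and Cxcl9, at a low signal, was 1.92-fold higher. At an unadjusted p under 0.05, 3 of the 10 were higher (Cxcl9, Cxcl10 and Cxcl5), against 4.64% of all genes, and 0 were lower, against 5.93%. Both GSK126 arrays lay above both DMSO arrays for 5 of the 10, against 18.2% of all genes. They lay below both DMSO arrays for 0 of the 10, against 21.8%. The 5 include Cxcl2, parted by only 0.004, and Cxcl9, at a low signal. The members were chosen with earlier results of these data known and include close relatives, so these counts are no test. The median change was 0.17 on the log2 scale over the 10 members and -0.01 over all genes. These values come from bulk RNA, in which more RNA per cell and more cells that express a gene cannot be told apart.

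Values below are log2 expression values of a probe set, and a change is the GSK126 mean minus the DMSO mean, with its standard error (SE) or 95% interval from limma. A gene is called dim in a group whose mean lies below 4.77, the 40th percentile of mean level over all genes. Array medians over all probe sets were 4.78 to 4.79 with GSK126 and 4.73 to 4.74 with DMSO. GSK126 replicate 2 correlated least with the other arrays (0.981 to 0.983), so the treated arrays were less alike (0.981) than GSK126 replicate 1 and either DMSO array (0.986 and 0.987). Of the 9 epithelial markers measured, 0 were dim in both groups. Epcam, Cdh1, Krt8 and Krt18 were at 10.44 or higher on all 4 arrays. Krt19 was at 4.63 and 4.62 in GSK126 cells, a dim level, against 4.70 and 4.89 in DMSO cells. The basal keratin gene Krt14 was at 5.58 and 5.30 in GSK126 cells, against 5.74 and 6.16 in DMSO cells.

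**Figure D1:**
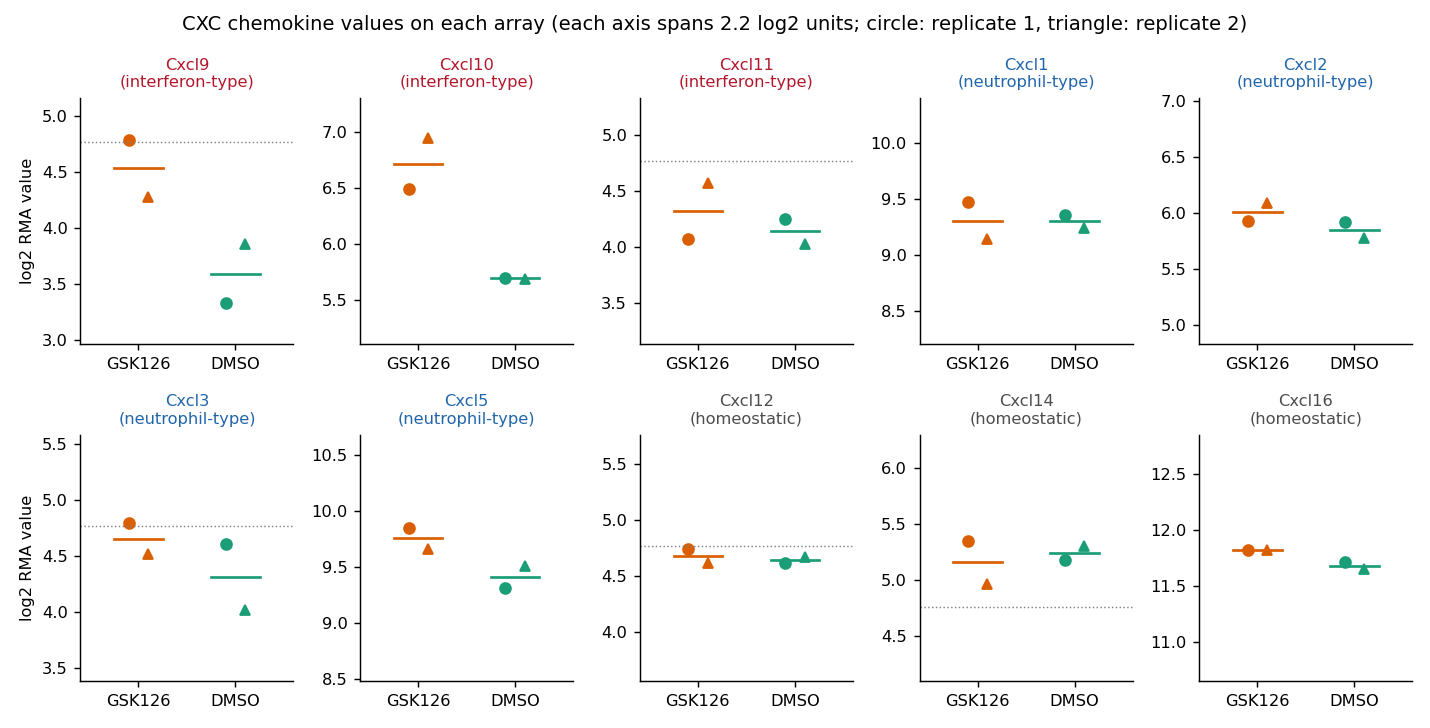
Log2 expression values of the 10 CXC chemokines on each array, GSK126 at the left and DMSO at the right of each panel. Circles are replicate 1, triangles replicate 2, bars the group mean, and the dotted line the dim level of 4.77 where it falls within a panel. Every panel has its own axis of the same length, since probe sets cannot be compared in level, and both GSK126 arrays are clear of the DMSO arrays by most for Cxcl10.

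Among the interferon-type members, Cxcl10 (interferon gamma-induced protein 10) had values of 6.49 and 6.94 in GSK126 cells, against 5.69 and 5.69 in DMSO cells. The groups were far apart, since the lower GSK126 array exceeded the higher DMSO array by 0.79, more than the 0.45 between the GSK126 arrays. Its change was 1.02 (SE 0.16, 95% interval 0.65 to 1.40), with an adjusted p of 0.0562. By p it ranked 109 of 22180 genes, and by size of increase 48. Without GSK126 replicate 2 the change was 0.80 (adjusted p = 0.450), and without GSK126 replicate 1 it was 1.25 (adjusted p = 0.0795). Without DMSO replicate 1 the change was 1.03, and without DMSO replicate 2 it was 1.02. Quantile normalization (adjusted p = 0.0462 in limma), a robust prior (0.0449) and a filter on dim genes (0.0243) each brought Cxcl10 past the threshold. It did not pass without the intensity trend (0.243), with the replicate number as a block (0.146) or when all probe sets were tested one by one (0.485).

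Cxcl9 (monokine induced by interferon gamma) had values of 4.79 and 4.28 in GSK126 cells, against 3.33 and 3.86 in DMSO cells. It was dim in both groups, and its 2 replicates lay 0.50 apart with GSK126 and 0.53 apart with DMSO. The groups did not overlap, but the gap of 0.42 was smaller than either of these spreads. The change was 0.94 (SE 0.24, 95% interval 0.37 to 1.51, adjusted p = 0.245), and it ran from 0.67 to 1.21 when 1 array was left out. The array with the higher value differed between these genes, replicate 1 of GSK126 for Cxcl9 and replicate 2 for Cxcl10.

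Cxcl11 was at 4.07 and 4.57 in GSK126 cells, against 4.25 and 4.02 in DMSO cells, dim in both groups. The groups overlapped, with the lower GSK126 value below the higher DMSO value. Its change was 0.18 (SE 0.21, 95% interval -0.30 to 0.67, adjusted p = 0.825) and turned to -0.07 without GSK126 replicate 2. RefSeq lists Cxcl11 as a transcribed pseudogene in the C57BL/6J reference, and whether the gene is intact in FVB was not examined.

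Of the neutrophil-type members, Cxcl5, an epithelial neutrophil attractant, had values of 9.85 and 9.66 in GSK126 cells, against 9.31 and 9.51 in DMSO cells. The groups did not overlap, with a gap of 0.16 that was smaller than the 0.18 and 0.19 between replicates. The change was 0.35 (SE 0.10, 95% interval 0.10 to 0.59), or 1.27-fold, with an adjusted p of 0.312. It stayed between 0.25 and 0.44 when 1 array was left out.

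Cxcl1 (KC), the mouse counterpart of the GRO chemokines, had values of 9.47 and 9.14 in GSK126 cells, against 9.35 and 9.24 in DMSO cells. The DMSO values lay between the GSK126 values. The change was 0.01 (SE 0.12, adjusted p = 0.996), with a 95% interval of -0.27 to 0.28, or 0.83-fold to 1.22-fold. Its sign was not settled, at -0.05 after centring each array on its median and from -0.16 to 0.17 when 1 array was left out.

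Cxcl2 (MIP-2) had values of 5.92 and 6.08 in GSK126 cells, against 5.92 and 5.77 in DMSO cells. The groups were parted by only 0.004, far less than the 0.16 and 0.15 between replicates. The change was 0.16 (SE 0.13, 95% interval -0.14 to 0.46, adjusted p = 0.730). Cxcl3, dim in both groups, was at 4.80 and 4.51 in GSK126 cells, against 4.61 and 4.02 in DMSO cells. Here the groups overlapped and DMSO replicate 2 lay below the other 3 arrays. The change of 0.34 (SE 0.23, 95% interval -0.18 to 0.87, adjusted p = 0.649) ran from 0.04 without DMSO replicate 2 to 0.64 without DMSO replicate 1. The promoters with the same kappaB letters thus went with changes of 0.01 for Cxcl1, 0.16 for Cxcl2 and 0.34 for Cxcl3, each with an interval that holds 0. Cxcl1, Cxcl2 and Cxcl3 are close relatives, and probes that share sequence between them could not be told apart here.

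Of the homeostatic members, Cxcl16 had values of 11.82 and 11.82 in GSK126 cells, against 11.71 and 11.65 in DMSO cells. The groups did not overlap, and the gap of 0.10 was larger than the spread within either group. The change was small, at 0.14 (SE 0.08, 95% interval -0.05 to 0.32, adjusted p = 0.592). Cxcl12 (SDF-1), dim in both groups, was at 4.74 and 4.62 in GSK126 cells, against 4.62 and 4.67 in DMSO cells. These groups overlapped. Its change was 0.04 (SE 0.15, 95% interval -0.31 to 0.39, adjusted p = 0.968) and turned to -0.016 after centring and -0.017 after quantile normalization.

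Cxcl14 (BRAK) had values of 5.35 and 4.97 in GSK126 cells, against 5.18 and 5.31 in DMSO cells. The GSK126 values enclosed the DMSO values. It was the only one of the 10 with a lower mean in GSK126 cells, at -0.08 (SE 0.17, 95% interval -0.47 to 0.31, adjusted p = 0.926), and this turned to 0.11 without GSK126 replicate 2. Of all genes, 48.0% had a higher mean with GSK126, as did 9 of the 10 members.

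**Figure D2:**
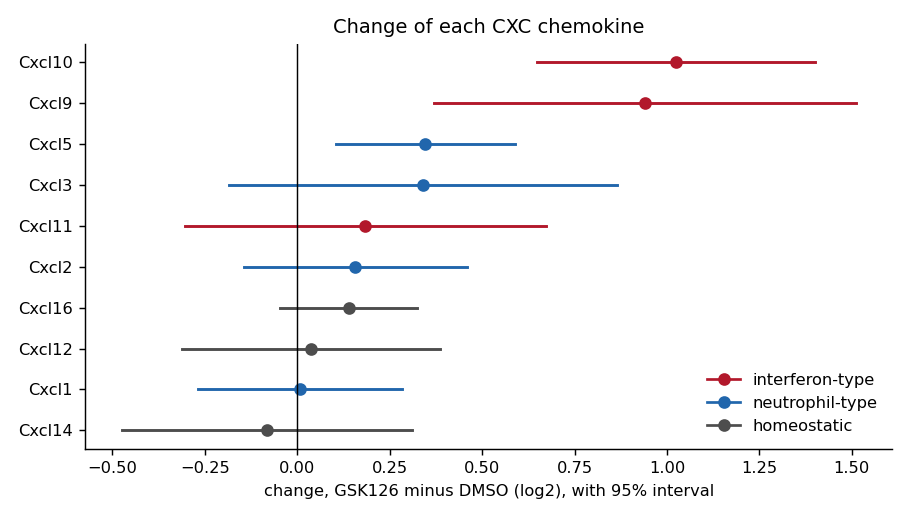
Log2 change of each CXC chemokine, GSK126 minus DMSO, and its 95% interval from limma, coloured by class and ordered by size. The intervals of Cxcl10, Cxcl9 and Cxcl5 lie above 0, and those of the other members hold 0.

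Ordered by change, the members ran Cxcl10, Cxcl9, Cxcl5, Cxcl3, Cxcl11, Cxcl2, Cxcl16, Cxcl12, Cxcl1 and Cxcl14. Neighbours in that order differed by less than the SE of their difference, except Cxcl9 and Cxcl5. These lay 0.59 apart with an SE of 0.27 when the errors of the genes are taken as independent. The order was set by these same changes, so this gap is no test of a break in it. Set by class, the median change was 0.94 for the interferon type, 0.25 for the neutrophil type and 0.04 for the homeostatic members. Over all genes it was -0.01. The interferon value is the change of Cxcl9 alone, which was dim in both groups, as was Cxcl11 at 0.18. The homeostatic value is that of Cxcl12, also dim in both groups. Averaged over its members and set against the DMSO mean of each gene, the interferon type stood at 0.64 and 0.79 on the GSK126 arrays, against -0.05 and 0.05 on the DMSO arrays. The neutrophil type stood at 0.29 and 0.13 on the GSK126 arrays, against 0.08 and -0.08 on the DMSO arrays. The homeostatic members stood at 0.11 and -0.05 on the GSK126 arrays, against -0.02 and 0.02 on the DMSO arrays. The class values hold 3 or 4 genes each and were not tested. Cxcl11 departed from the other interferon-type genes, with a change below that of Cxcl5 and Cxcl3.

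Chromosome 5 carries 7 of the 10 genes, in 2 clusters. By RefSeq order, Cxcl5, Cxcl3, Cxcl1 and Cxcl2 lie in 1 cluster with the platelet chemokine genes Ppbp and Pf4 and with Cxcl15, and Cxcl9, Cxcl10 and Cxcl11 lie in the other, where Art3 was measured between Cxcl9 and Cxcl10. Art3, an ADP-ribosyltransferase family gene, was at 3.71 and 3.86 in GSK126 cells, against 3.72 and 3.89 in DMSO cells. It was dim in both groups, with a change of -0.02 (SE 0.17). Nup54, a nuclear pore gene next to Cxcl11, had a change of -0.25 (SE 0.10), and Sdad1, next to Cxcl9, one of -0.17 (SE 0.09). The 7 measured genes within and beside this cluster that are not chemokines had changes from -0.25 to 0.20. None passed the threshold in limma, and 1 of the 7, Nup54, was lower at an unadjusted p under 0.05, against 5.93% of all genes. The remaining 4 were Naaa (-0.15), Ppef2 (0.20, dim in both groups), Scarb2 (0.02) and Fam47e (-0.01).

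In and beside the other cluster the 9 genes outside the 10 members had changes from -0.20 to 0.38. None passed in limma, and 1 of the 9, Ppbp, was higher at an unadjusted p under 0.05, against 4.64% of all genes. Ppbp lies beside Cxcl5 and had the highest change of these 9. Ppbp was at 4.74 and 4.90 in GSK126 cells, against 4.54 and 4.34 in DMSO cells, and its groups did not overlap (change 0.38, SE 0.16, adjusted p = 0.464). Pf4, next in line, was at -0.03 (SE 0.19), and the growth factor genes Epgn and Ereg, beyond Cxcl2, were at 0.07 (SE 0.16) and -0.02 (SE 0.14). Afm (0.05), Albfm1 (-0.20), Rassf6 (0.17) and Mthfd2l (-0.06) made up the rest beside Cxcl15. Afm, Albfm1, Pf4 and Cxcl15 were dim in both groups, and Ppbp was dim in DMSO cells.

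**Figure D3:**
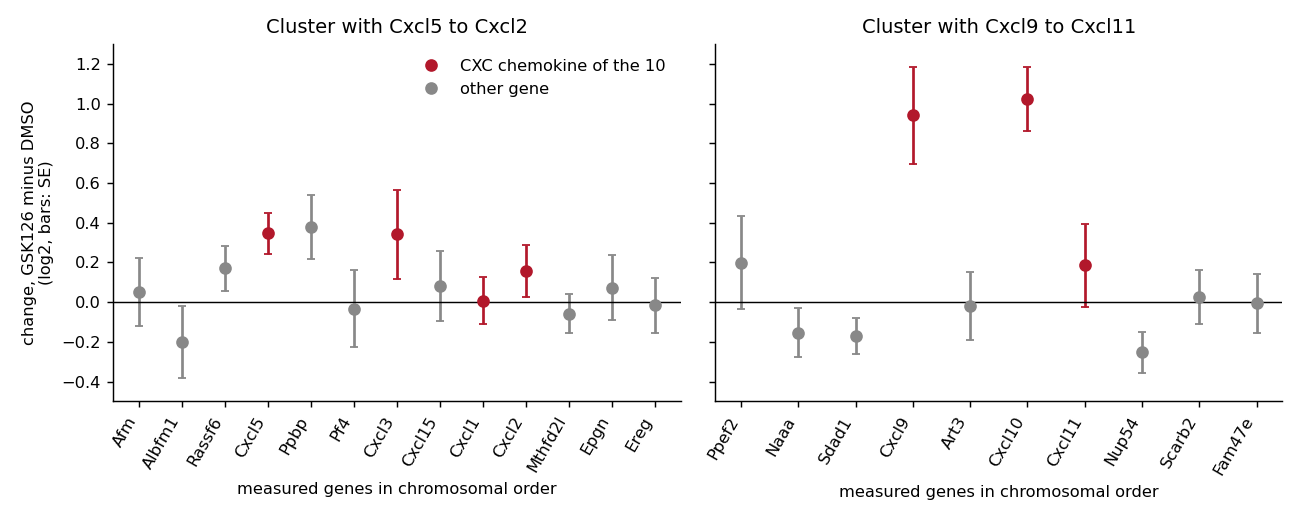
Changes on the log2 scale, GSK126 minus DMSO with SE bars, of the measured genes in chromosomal order across the chemokine clusters of chromosome 5 and 3 genes to each side. Red points are members of the 10 and grey points other genes. Cxcl9 and Cxcl10 stand at 0.94 and 1.02, while Art3 between them, dim in both groups as is Cxcl9, stands at -0.02.

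The remaining CXC ligands of the mouse gave no call. Of the 5 measured, 0 passed in limma and 1 was higher at an unadjusted p under 0.05, against 4.64% of all genes. Their median change was 0.08. Besides Ppbp these were Cxcl17, a mucosal chemokine (0.27, SE 0.15), Cxcl15, a chemokine of lung epithelium (0.08, SE 0.18), Cxcl13, the B cell attractant (0.015, SE 0.17), and Pf4.

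Among the CXC receptors 1 of 8 passed the threshold, against 0.433% of all genes in either direction, and it fell. Cxcr4, the receptor of Cxcl12, was at 6.23 and 6.23 in GSK126 cells, against 7.05 and 6.91 in DMSO cells. The GSK126 values were identical as deposited and lay well below both DMSO values. The change was -0.75 (SE 0.11), or 1.68-fold lower in GSK126 cells, with an adjusted p of 0.0459, while its ligand Cxcl12 stood at 0.04. The other receptors gave no call. The Cxcl16 receptor gene Cxcr6, dim in both groups, was at 0.44 (SE 0.17, adjusted p = 0.427), and Ackr3, a scavenging receptor for Cxcl12, was at 0.28 (SE 0.21). Cxcr2, which the neutrophil-type ligands bind, was at 0.24 (SE 0.15), and Cxcr3, which the interferon-type ligands bind, at -0.02 (SE 0.15). The median over the 8 receptors was 0.03.

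Proteases can release or trim CXC ligands, and 1 of 9 passed, as higher, against 0.433% of all genes in either direction. Mmp13, a collagenase, was at 5.74 and 5.68 in GSK126 cells, against 4.20 and 3.93, a dim level, in DMSO cells (change 1.65, SE 0.16, adjusted p = 0.0122). The groups were far apart. Adam10 and Adam17, which release Cxcl16 from the membrane, had changes of -0.005 (SE 0.10) and 0.011 (SE 0.09). Dpp4, which trims and inactivates Cxcl10, was dim in both groups and had a change of 0.43 (SE 0.16, adjusted p = 0.427). Mmp12 (0.36, SE 0.18) and Mmp14 (-0.12, SE 0.09) did not pass either, and the median over the 9 was 0.01.

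Of the interferon signalling genes, 18 of 19 were measured and 1 passed, as higher, against 0.433% of all genes in either direction. Usp18, a feedback inhibitor of the type I interferon receptor, was at 10.57 and 10.52 in GSK126 cells, against 9.68 and 9.68 in DMSO cells (change 0.86, SE 0.08, adjusted p = 0.0101). Stat2, a subunit of the factor that binds interferon response elements, was near the threshold with 9.09 and 9.05 in GSK126 cells, against 8.38 and 8.55 in DMSO cells (change 0.61, SE 0.09, adjusted p = 0.0506). Irf7 (0.23, SE 0.09) and Socs1 (0.24, SE 0.13) did not pass. Irf1, an inducer of Cxcl9 and Cxcl10, was at -0.08 (SE 0.11), and the interferon genes Ifnb1 and Ifng, dim in both groups, were at -0.28 (SE 0.18) and -0.05 (SE 0.16). The median over the 18 was -0.05.

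The list of NF-kB, IL-1, TNF and IL-17 signalling, which covers known inducers of the neutrophil-type ligands, had 24 of 26 genes measured and 0 past the threshold. At an unadjusted p under 0.05 in limma 0 were higher and 3 lower, or 3 of 24 against 5.93% of all genes, and the median was -0.07. Tnf, the inflammatory cytokine, was at 8.08 and 8.27 in GSK126 cells, against 8.68 and 8.52 in DMSO cells (change -0.43, SE 0.11, adjusted p = 0.222). Its groups did not overlap. The transcription factor genes Cebpb and Cebpd were at -0.35 (SE 0.09, adjusted p = 0.259) and -0.41 (SE 0.16, adjusted p = 0.438).

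Leukocytes also express interferon-type and neutrophil-type chemokines. Of 19 immune cell markers measured, 15 were dim in both groups. Ptprc, the pan-leukocyte marker CD45, was at 3.44 and 3.58 in GSK126 cells, against 3.67 and 3.37 in DMSO cells, and its groups overlapped. The macrophage marker Adgre1 was at -0.16 (SE 0.20), and the median over the 19 was 0.11. Cd68 (change 1.00, SE 0.09, adjusted p = 0.010) and S100a8 (change 0.74, SE 0.09, adjusted p = 0.0297), which are not confined to leukocytes, rose. These 2 passed, against 0.433% of all genes in either direction, and 17 did not pass. Of these 17, Ms4a1 (0.35, SE 0.16), Itgax (-0.27, SE 0.16) and Mcpt4 (-0.23, SE 0.17), markers of B cells, dendritic cells and mast cells, had the smallest p and were dim in both groups. The log2 of the summed linear level of the list was 11.62 and 11.70 in GSK126 cells, against 11.37 and 11.25 in DMSO cells. Cd14 had the highest values of the list, at 10.61 and 10.73 in GSK126 cells, against 10.64 and 10.49 in DMSO cells. Its groups overlapped (change 0.11, SE 0.09). The sum includes Cd14, Cd68 and S100a8, weights probe sets by their brightness and is no measure of leukocyte number. The part of these markers in the values of Cxcl9 and Cxcl10 was not tested.

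**Figure D4:**
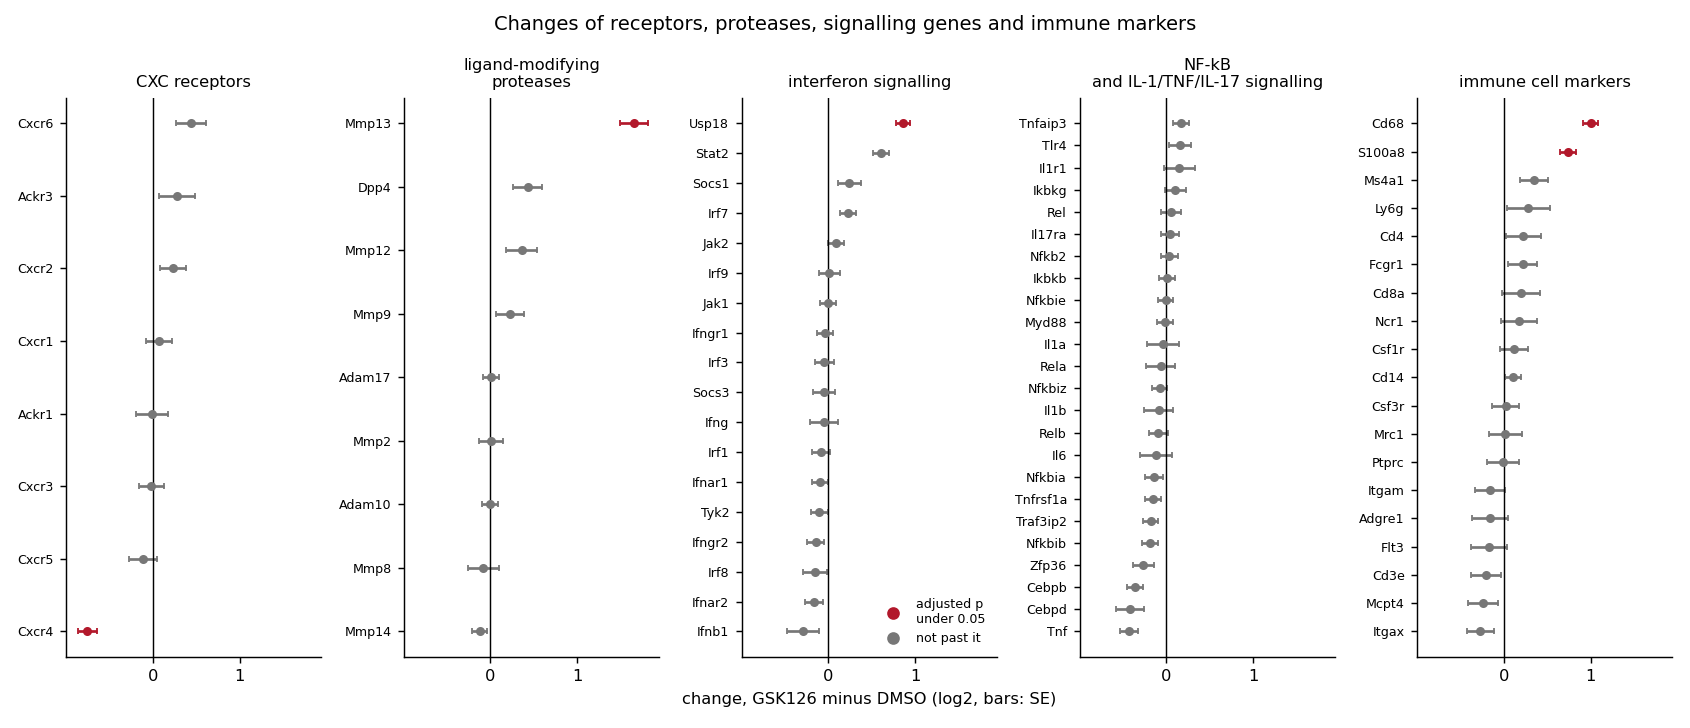
Log2 change (GSK126 minus DMSO, bars show the SE) of each measured gene of 5 lists, ordered within a list. Red points passed an adjusted p under 0.05 in limma over all genes: Cxcr4 (lower), Mmp13, Usp18, Cd68 and S100a8 (higher).

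The calls of Cxcr4, Mmp13, Usp18, Cd68 and S100a8 each ended when any 1 of the 4 arrays was left out, without the intensity trend, with the replicate number as a block and when all probe sets were tested one by one. For Cxcr4 the adjusted p was then 0.204 to 0.473 over the left-out arrays, 0.235 without the trend, 0.152 with the block and 0.440 over all probe sets, and its change stayed between -0.82 and -0.68.

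Over the 4 arrays, the genes whose centred values lay nearest to those of Cxcl10 by root mean square distance were Grpr (0.05), P2rx2 (0.07), Ncam1 (0.09), Vgll3 (0.09) and Maoa (0.10), among 16849 protein-coding genes. Grpr, the receptor of gastrin-releasing peptide, was at 6.01 and 6.47 in GSK126 cells, against 5.13 and 5.10 in DMSO cells (change 1.13, SE 0.17, adjusted p = 0.0506). Ncam1 (1.08), a cell adhesion gene, Vgll3 (1.13), a transcription cofactor, and Maoa (1.14), a monoamine oxidase, had adjusted p-values of 0.0284, 0.0178 and 0.0164. None of these genes is in the lists above. Nearest to Cxcl1 were Med26, Cass4, Cemip, Cep131 and Acsm1, each at 0.01 from it, and nearest to Cxcl12 were Irs4, Cdk5rap2, Vgll4, Myo5c and Zdhhc21. Such flat profiles are common: 664 and 1636 genes lay within a further 0.05 of the fifth nearest to Cxcl1 and Cxcl12, against 16 for Cxcl10.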

How the data were processed

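Single-channel Affymetrix mouse arrays were hybridised with biotin-labelled total RNA from 2 GSK126 and 2 DMSO samples. Per the labels, the authors made the deposited log2 values in Expression Console, by RMA (robust multi-array averaging) at the level of core exons. Affymetrix Power Tools is also named, without a version, per the submitters' processing notes. Centring and genome build are not given in the sources used here, and probe positions are not printed. Scan dates were not used here.

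Of 41345 probe sets, 23521 carried 1 gene symbol, 1814 several and 16010 none. Each of the 22180 named genes was represented by its probe set with the highest mean, and each CXC chemokine had 1. RefSeq identifiers (GRCm38.p6) matched 21994 genes and changed 0 symbols. GSK126 minus DMSO was fitted over all genes with limma 3.58.1 in R 4.3.3 (intensity trend, 2 residual and 5.57 prior degrees of freedom, two-sided moderated test, Benjamini-Hochberg adjustment over all genes, threshold 0.05) and tested on simulated data. Intervals are per gene, at 95%.

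The members, lists and tests were chosen with earlier results of these data known. Besides the 10 members, the text names from each list the genes past the threshold and the 3 others with the smallest p, the neighbours on the chromosome and the nearest profiles of Cxcl10, Cxcl1 and Cxcl12. Irf1, Ifnb1, Ifng, Cxcr3, Adam10, Adam17, Ptprc, Adgre1, Cxcl13, Pf4, Epcam, Cdh1, Krt8, Krt18 and Krt19 were added for their roles after their values were seen. Cd14 was added for its level, also after its values were seen. Array pairs shared 142 to 181 identical values, too few for a duplicated array. The number of arrays limits the precision. Alternatives were other priors, a filter on dim genes, averaged or separate probe sets, quantile normalization, centring, a replicate block and leaving out each array.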

Additional observations from a re-analysis of the deposited data

How the results depend on the processing

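Of the 10 members, 0 passed in limma in the values as reported (3 at an unadjusted p under 0.05) and 0 to 0 when 1 array was left out. The count was 1, Cxcl10, after quantile normalization (change 1.02), with a robust prior and with dim genes filtered out. The count over all genes, 96, became 149 without dim genes and 10 with the replicate number as a block. It became 0 in limma without the intensity trend (1964 at an unadjusted p under 0.05) and over all probe sets (2921), and 0 to 4 when 1 array was left out, with 0 without GSK126 replicate 1 (2100) and without replicate 2 (1771). Over the left-out arrays, the median change ran from 0.67 to 1.02 for the interferon type, from 0.064 (without DMSO replicate 2) to 0.30 for the neutrophil type and from -0.024 to 0.11 for the homeostatic members. The homeostatic median, which is that of Cxcl12, turned to -0.016 after centring and to -0.017 after quantile normalization. Signs turned for Cxcl1, Cxcl11, Cxcl12 and Cxcl14. Cxcl1 was at -0.047 after centring, and over the left-out arrays Cxcl1 ran from -0.16 to 0.17, Cxcl11 from -0.068 to 0.44, Cxcl12 from -0.024 to 0.099 and Cxcl14 from -0.27 to 0.11. The causes were not tested. Same-numbered samples deviated from their group means with a correlation of -0.025 over genes, so they showed no shared deviation. With 2 arrays per group this cannot settle whether the samples were paired. The block changed no call of a member. Cxcl9, Cxcl11, Cxcl3 and Cxcl12 were not tested where dim genes were left out.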

Other observations

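Values of the fibroblast, endothelial and epithelial marker lists follow, of which some epithelial ones are given above. Among 10 fibroblast markers, 0 passed in limma over all genes. At an unadjusted p under 0.05, 3 were higher, against 4.64% of all genes, the same count as among the 10 CXC chemokines. The median change of the list was 0.09. The matrix gene Postn was at 6.77 and 6.64 in GSK126 cells, against 5.88 and 6.31 in DMSO cells (change 0.61, SE 0.16, adjusted p = 0.245), and Pdgfra (0.45, SE 0.18) and Thy1 (0.35, SE 0.15) did not pass either. Among 8 endothelial markers, 0 passed and 0 had an unadjusted p under 0.05 in limma, with a median of 0.03, and the smallest p were those of Pecam1 (0.29, SE 0.15), Vwf (0.24, SE 0.16) and Cdh5 (-0.26, SE 0.22). Among 9 epithelial markers measured, 0 passed in limma, and the median was -0.09. At an unadjusted p under 0.05 in limma, 1 was higher and 2 were lower, against 4.64% and 5.93% of all genes. The tight junction gene Cldn4 was at 11.60 and 11.70 in GSK126 cells, against 11.24 and 11.28 in DMSO cells (change 0.39, SE 0.08, adjusted p = 0.146), while Cldn7 was at -0.22 (SE 0.09) and the basal keratin gene Krt14 at -0.51 (SE 0.18, adjusted p = 0.384).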
